A study of Mus musculus with 32 samples.

Results

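The genes described here are 9 mouse genes that handle vitamin A or are named for responding to it: Gprc5a, Dhrs9, Rbp2, Lrat, Stra6, Aldh1a1, Aldh1a2, Cyp26b1 and Rarb. They were taken by symbol from the deposited expression tables, 9 of 22532 gene symbols, and a record of each was present in all 32 tables. Gprc5a and Dhrs9 were chosen by their FPKM difference between genotypes in small intestine, so that the values of the 9 genes in that contrast are given as a description, without a test. The other genes were added for their place in the same pathway.

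RNA depleted of ribosomal RNA was sequenced from parts of the gut, either wild type or homozygous for a targeted deletion that the labels write percc1-/-. All animals were of a mixed 129SvEv and C57BL/6 background, without further treatment in the labels. The deletion removed 1512 bp of chromosome 17 in W4/129S6 embryonic stem cells and left 1 loxP site after Cre had taken out a neomycin cassette, and the line was kept by breeding siblings. The 32 libraries formed 16 pairs matched for region and stage, with 1 library of each genotype. Of these pairs 7 were of small intestine (its top at P1, P5 and P15, its bottom at P1, P5, P10 and P20), 5 of stomach (the whole organ at P1 and P5, its bottom at P10, P15 and P20), 3 of large bowel (the rectum and the colon apart at P5, joined at P1) and 1 of whole gut at E14.5. P and E stand for postnatal and embryonic days. The labels do not say that libraries came from separate animals, so that the p-values below measure the spread between these libraries, part of which may be technical.

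Vitamin A enters the gut epithelium as carotenoids or retinol. Retinol is held in the enterocyte by the binding protein Rbp2 and is esterified by Lrat for export in chylomicrons. Elsewhere in the body Stra6 takes retinol up from plasma. Retinol is oxidised to retinal by dehydrogenases such as Dhrs9, and retinal to retinoic acid by Aldh1a1 and Aldh1a2. Retinoic acid binds nuclear receptors such as Rarb and is degraded by Cyp26b1. Gprc5a, an orphan receptor of epithelial cells, was first described as a gene induced by retinoic acid.

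For 3 of the 9 genes the sequence upstream of the start is shown, since retinoic acid receptors bind paired copies of a short motif. Single copies, which are not such pairs, were searched as well. Of the 9 genes, 8 had at least 1 entry among RefSeq promoter windows on GRCm38.p6, 12 windows in all, and Gprc5a had none. The 250 bases before each start were searched on both strands for the core motif AGGTCA and for 12 direct repeats of the core motif without its first base, spaced by 1, 2 or 5 bases besides that base: GGTCANNGGTCA, GGTCANNGTTCA, GTTCANNGGTCA, GTTCANNGTTCA, GGTCANNNGGTCA, GGTCANNNGTTCA, GTTCANNNGGTCA, GTTCANNNGTTCA, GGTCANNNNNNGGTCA, GGTCANNNNNNGTTCA, GTTCANNNNNNGGTCA and GTTCANNNNNNGTTCA. A core motif can lie within a repeat that contains GGTCA. Among 32536 distinct windows of this length, 0.821 percent held at least 1 of the repeats and 14 percent held the core motif. Rarb, the receptor, held the repeat GTTCANNNNNNGTTCA, found in 0.0676 percent of windows, from 52 to 37 bases before the start. Dhrs9, the dehydrogenase, held the core motif on the reverse strand from 88 to 83 bases before the start, and Rbp2, the binding protein, from 58 to 53. The windows are Rarb chr14:16575477-16575726 on the minus strand, Dhrs9 chr2:69380212-69380461 and Rbp2 chr9:98490287-98490536 on the plus strand, each printed along its gene with the matches in capitals.
Rarb: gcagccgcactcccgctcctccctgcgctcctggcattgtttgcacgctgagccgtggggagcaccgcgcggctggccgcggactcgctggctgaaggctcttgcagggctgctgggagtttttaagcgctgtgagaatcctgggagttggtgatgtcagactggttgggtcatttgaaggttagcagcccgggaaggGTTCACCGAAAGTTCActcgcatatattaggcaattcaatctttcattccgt
Dhrs9: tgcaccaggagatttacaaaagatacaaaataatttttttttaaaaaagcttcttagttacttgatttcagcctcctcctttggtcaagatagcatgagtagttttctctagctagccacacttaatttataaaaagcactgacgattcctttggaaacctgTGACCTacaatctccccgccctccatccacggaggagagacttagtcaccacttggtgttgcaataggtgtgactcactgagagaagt
Rbp2: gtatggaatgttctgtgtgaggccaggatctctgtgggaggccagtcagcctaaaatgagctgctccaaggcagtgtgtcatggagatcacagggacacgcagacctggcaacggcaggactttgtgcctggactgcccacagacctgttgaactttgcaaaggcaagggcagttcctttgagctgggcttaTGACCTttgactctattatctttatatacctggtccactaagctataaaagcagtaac
The other 5 genes with an entry (Lrat, Stra6, Aldh1a1, Aldh1a2 and Cyp26b1) held no match in these windows. A match describes the letters and does not show binding.

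Values are FPKM, fragment counts scaled for transcript length and library size, so that levels of different genes can be set side by side. Differences are on the log2 scale of FPKM + 1 after libraries were rescaled to a common median by factors of 0.864 to 1.38, which understates the change of low genes. The SE given with a difference is the moderated one of limma, which draws the variance of each gene toward that of other genes. The number of reads behind a value is not given in the tables, and the lower and upper bounds that the authors give for each FPKM are its error. No record carried the symbol Percc1, so that the targeted gene could not be examined by name. Unnamed records inside the stated deletion (mm9 chr17:25175032-25176543) were present in 4 of the 16 percc1-/- libraries and in 0 of the 16 wild-type ones. The same position numbers fall inside Percc1 on GRCm38, so that the build of the stated deletion is in doubt and these records do not check the genotype labels. Markers of the labelled tissues were present: the summed rescaled FPKM of 9 enterocyte genes was 334 to 569 in small intestine, and that of 9 gastric gland genes was 126 to 740 in stomach against 4.26 to 190 in small intestine. Markers of another organ (gastric gland, enterocyte, pancreas or liver) differed between the libraries of a pair by a median of over 1 log2 unit in 13 of 16 pairs, and in 9 of these over at least 5 markers. In top intestine at P1 and P5, for example, 8 usable pancreas markers were all lower in percc1-/-, and in bottom intestine at P5 7 of 7 squamous epithelium markers were higher (summed FPKM 135 against 1.20).

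Gprc5a (mm9 chr6:135015669-135034727, plus strand, 4 exons) was higher in the percc1-/- library of every pair of small intestine. In bottom intestine it stood at 3.45 FPKM in percc1-/- against 0.415 in wild type at P1, 6.43 against 0.778 at P5, 5.88 against 0.506 at P10 and 5.54 against 2.08 at P20. In top intestine it was 4.63 against 0.555 at P1, 1.30 against 0.588 at P5 and 3.05 against 0.507 at P15. The wild-type libraries lay below 1 FPKM except bottom intestine at P20, and the percc1-/- library of top intestine at P5 was the lowest of its genotype and lay below that wild-type library. The ratio in a pair ranged from 2.21 to 11.6 with a median of 8.28, and the difference was 1.57 ± 0.19 (SE, 7 pairs). In 6 of the 7 pairs the authors' FPKM bounds did not overlap, the exception being top intestine at P5, where they were 0.831 to 1.77 in percc1-/- and 0.332 to 0.845 in wild type. These bounds give the error within a library and not the spread between animals. The share of all genes whose bounds did not overlap is not given, here or below. For Lrat the bounds placed percc1-/- below in 4 of the same pairs and above in 2. With all genes fitted in the same way, 0.117 percent were called at an adjusted p below 0.05, a background from which nothing is read here because this contrast chose the gene. Without bottom intestine at P5 and top intestine at P1 and P5, the 3 of these pairs in which at least 5 markers of another organ differed, the Gprc5a difference was 1.60. That limit of 5 markers was set after the data were seen. The planned rule, without it, also removed bottom intestine at P1, P10 and P20. It left top intestine at P15 alone, so that no fit could be made.

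In large bowel, outside the contrast that chose the gene, Gprc5a was again higher in each percc1-/- library. It stood at 5.42 FPKM against 1.88 at P1, and at P5 at 3.21 against 1.31 in colon and 11.1 against 3.31 in rectum. The ratios were 2.44 to 3.35 and the bounds did not overlap in 3 of 3 pairs, although the genotype groups overlapped because the wild-type rectum exceeded the percc1-/- colon. Colon and rectum at P5 were among the pairs in which at least 5 markers of another organ differed. In colon the gastric gland markers summed to 72.7 in percc1-/- against 10.3 in wild type, and in rectum the liver markers had a median difference of -1.98. Their part in the Gprc5a values was not tested. In stomach the order changed with the pair. Gprc5a stood at 2.35 against 1.24 at P1, 1.70 against 1.14 at P5 and 8.24 against 6.32 at P15, and at 2.78 against 3.39 at P10 and 8.06 against 10.03 at P20, with bounds that did not overlap in 1 of 5 pairs. At P15 the difference was 0.04 after rescaling. The percc1-/- library there had the highest scale factor of all libraries (1.38) and the highest share of FPKM in named records (60.2 percent). The whole gut at E14.5 had 1.52 against 0.840 FPKM.

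A fit of genotype over the 9 pairs outside small intestine tested these libraries, with the pair as a block. It called 0 of the 5 genes that could be tested and 9 of 13403 genes, or 0.0671 percent (limma, adjusted p below 0.05). At an unadjusted p below 0.05 it held 1 of the 5, Gprc5a, and 1014 of all genes, or 7.57 percent. Gprc5a had a difference of 0.52 ± 0.17 (SE, adjusted p = 0.474) and was higher in 7 of 9 pairs. Over the 3 large bowel pairs alone it was 1.14 (adjusted p = 0.362), and over the 5 stomach pairs alone 0.18 (adjusted p = 0.989). Whether the difference was larger in large bowel than in stomach was not tested.

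**Figure D1:**
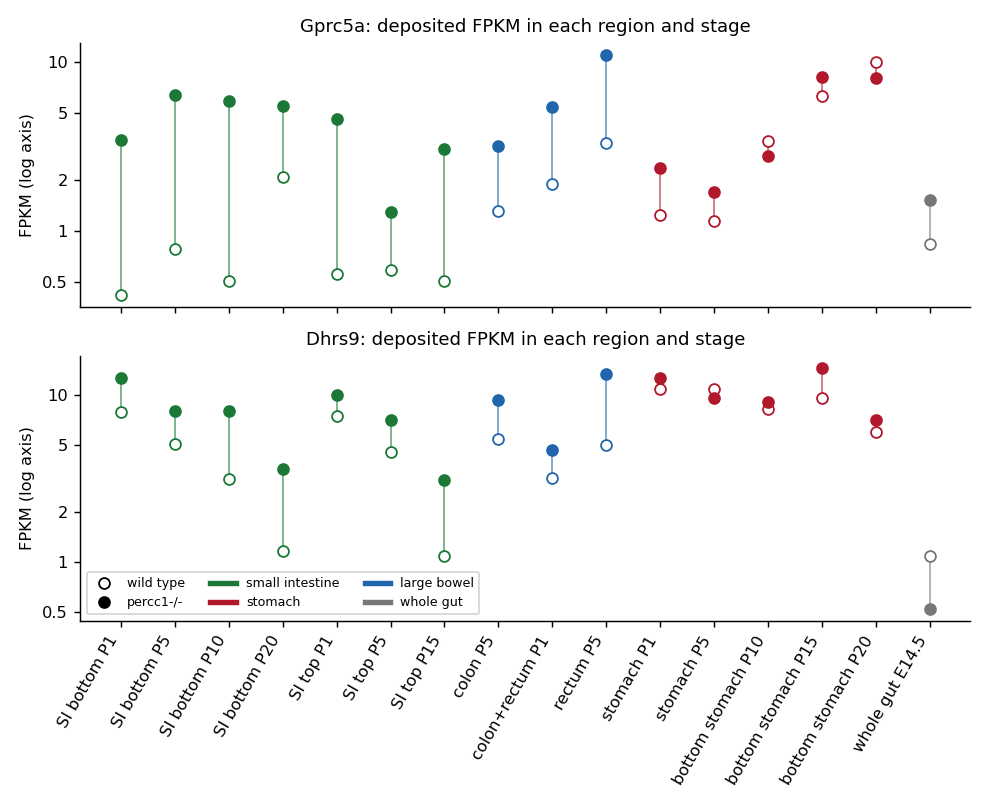
FPKM of Gprc5a and Dhrs9 on a log axis in each region and stage, with 1 wild-type library (open) and 1 percc1-/- library (filled) joined by a line and coloured by organ. Both genes lie higher in percc1-/- in the 7 pairs of small intestine (SI) and the 3 of large bowel, while stomach pairs lie in either direction for both.

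Dhrs9 (mm9 chr2:69218502-69242590, plus strand, 5 exons) encodes a short-chain dehydrogenase that can oxidise retinol, and it too was higher in every percc1-/- library of small intestine. In bottom intestine it stood at 12.8 FPKM in percc1-/- against 7.94 in wild type at P1, 7.99 against 5.12 at P5, 8.06 against 3.15 at P10 and 3.62 against 1.16 at P20. In top intestine it was 10.1 against 7.48 at P1, 7.11 against 4.59 at P5 and 3.08 against 1.09 at P15. Each percc1-/- library exceeded its partner, with bounds that did not overlap in 7 of 7 pairs, while the genotype groups overlapped across stages. As for Gprc5a, this contrast chose the gene, and the share of all genes with such bounds is not given. The ratios were 1.35 to 3.12, and the difference was 0.78 ± 0.11 (SE, 7 pairs). By the planned rule, markers of another organ differed in all of these pairs except top intestine at P15. Their part in the Dhrs9 values was not tested.

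In large bowel Dhrs9 stood at 4.66 against 3.17 FPKM at P1, and at P5 at 9.40 against 5.43 in colon and 13.4 against 5.05 in rectum. All 3 pairs had bounds that did not overlap, and the percc1-/- library was the higher in each. Of these, colon and rectum at P5 were the pairs named above in which markers of another organ differed. In stomach Dhrs9 was 12.7 against 10.9 at P1, 9.65 against 10.9 at P5, 9.07 against 8.22 at P10, 14.51 against 9.64 at P15 and 7.13 against 6.02 at P20. The pair at P5 was the exception, and it turned to a difference of 0.02 after rescaling. The whole gut had the opposite order, 0.524 in percc1-/- against 1.09 in wild type. Over the 9 pairs outside small intestine the difference was 0.31 ± 0.15 (SE) and did not pass (limma adjusted p = 0.673).

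The end of Dhrs9 was also covered by records without a gene name. The named record ended at 69241143 on mm9 chromosome 2, short of the annotated end at 69242590, and 28 of 32 libraries had unnamed records further on, between 69241272 and 69246128, whose strand the tables do not give. Their length-weighted mean FPKM was 2.13 to 8.85 in percc1-/- small intestine and up to 3.78 in wild type, with no record in wild-type bottom intestine at P20 and top intestine at P15. It was higher in percc1-/- in 7 of 7 pairs of small intestine, 3 of 3 of large bowel and 4 of 5 of stomach, and no record was listed in whole gut. Its ratio to Dhrs9 itself ran from 0.395 to 0.785. Across the 28 libraries the 2 measures had a Pearson r of 0.931 on the log2 scale, a description over libraries that share organs and processing. In each of the 28 the first unnamed record began before the annotated end of Dhrs9. The 2 measures may thus be of the same gene and are not separate results.

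**Figure D2:**
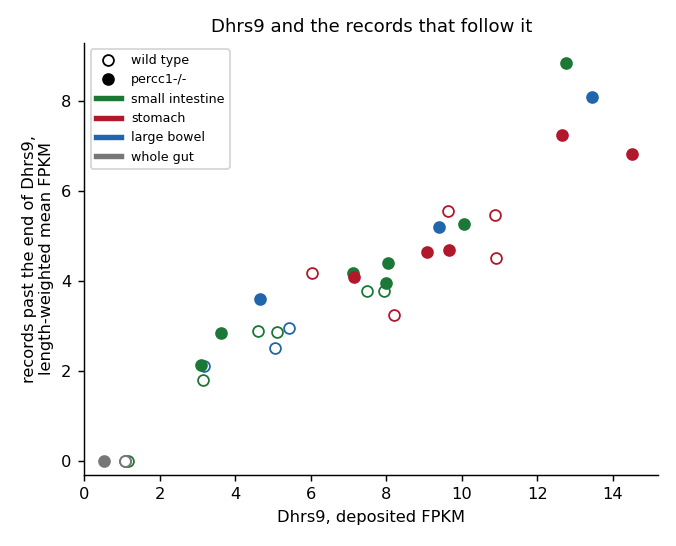
Length-weighted mean FPKM of the unnamed records past the end of the named Dhrs9 record (vertical) against the FPKM of Dhrs9 (horizontal) in the 32 libraries, open for wild type and filled for percc1-/-, coloured by organ. Libraries with more Dhrs9 have more signal past the end of the named record, and the 4 libraries with no such unnamed record lie at the low end.

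Of the genes that take up and store retinol, Rbp2 (mm9 chr9:98390956-98410190) had the highest median FPKM of the 9 in small intestine. It did not follow genotype in small intestine, where wild-type libraries ran from 30.4 to 70.7 FPKM (median 54.1) and percc1-/- libraries from 41.7 to 62.3 (median 54.5), with the percc1-/- library higher in 3 of 7 pairs (difference 0.07). The 3 pairs with the higher percc1-/- library were those at P10, P15 and P20, where it stood at 54.5 against 30.4, 62.3 against 54.1 and 55.9 against 41.2. In large bowel at P1 it was 27.0 against 14.1, and at P5 23.8 against 12.6 in colon and 12.6 against 15.2 in rectum. Outside small intestine the difference was 0.19 ± 0.12 (SE, limma adjusted p = 0.772).

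Lrat (mm9 chr3:82696501-82707895, minus strand), which makes retinyl esters, was lower in percc1-/- in 5 of 7 pairs of small intestine. It stood at 7.35 FPKM against 13.9 in bottom intestine at P1, 2.84 against 10.7 at P5 and 2.77 against 8.29 at P10, and at 5.35 against 16.6 in top intestine at P1 and 12.6 against 13.99 at P5. The order was the other way in bottom intestine at P20, 4.17 against 2.96, and top intestine at P15, 11.4 against 7.80. The bounds of 4 pairs placed percc1-/- below and those of 2 placed it above, so that pairs of the same genotype contrast moved past the authors' error in both directions. The mean difference was -0.62 ± 0.28 (moderated SE, 7 pairs), with an SD of 0.896 between the pairs. In large bowel percc1-/- was lower in 3 of 3 pairs, 0.312 against 1.88, 1.37 against 1.60 and 0.451 against 0.830, at levels too low for the fit over all pairs outside small intestine. In whole gut Lrat had 0.527 against 1.55.

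Stra6, the plasma retinol receptor (mm9 chr9:57911595-58001803), was at or under 1.62 FPKM in every library and passed the filter of a mean of 1 FPKM in no fit. It was higher in percc1-/- in 5 of 5 pairs of stomach, with ratios of 1.15 to 2.99, in 3 of 3 of large bowel, with ratios of 1.15 to 2.01, and in whole gut, 1.62 against 0.772. The highest value in large bowel, 1.34 in percc1-/- at P1, had bounds of 0 to 3.59. In small intestine it was higher in 3 of 7. The authors' bounds overlapped in 4 of 5 pairs of stomach, 2 of 3 of large bowel and 7 of 7 of small intestine, so that most single pairs lay within the error the authors gave.

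Of the enzymes that make retinoic acid, Aldh1a2 (mm9 chr9:71063596-71144050), which in gut is known from mesenchyme and mesothelium, was lower in percc1-/- in 7 of 7 pairs of small intestine. Wild-type libraries had 6.00 to 12.9 FPKM (median 11.9) and percc1-/- libraries 5.26 to 9.70 (median 8.30). The ratios were 0.662 to 0.876, and the groups overlapped. The difference was -0.36, and the bounds did not overlap in 2 of 7 pairs. It was not lower throughout the other organs: by FPKM percc1-/- was the higher in 2 of 5 pairs of stomach and 2 of 3 of large bowel (3 and 1 after rescaling), and it stood at 14.3 against 9.80 in whole gut, with a difference of 0.06 ± 0.09 (SE, limma adjusted p = 0.924) over the 9 pairs. In the same 7 pairs the median difference of the usable mononuclear phagocyte markers (4 to 6 of 7) was below 0 in 7, from -0.61 to -0.01, that of 6 mesenchyme markers in 5, and that of the usable mesothelium markers (3 to 6 of 6) in 4. The phagocyte median was also below 0 in 3 of 3 pairs of large bowel, 3 of 5 of stomach and in whole gut. Aldh1a2 was not lower throughout those organs. By summed rescaled FPKM percc1-/- was higher in 3 of the 7 pairs of small intestine for phagocyte, 2 for mesenchyme and 5 for mesothelium markers. The part of these cells in the value was not tested, and fewer cells of a type cannot be told apart from less RNA per cell in whole tissue.

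Aldh1a1 (mm9 chr19:20676451-20717952) could not be read in 4 percc1-/- libraries, because its record was merged there with that of E030003E18Rik. In the 5 pairs of small intestine with a value, percc1-/- was higher in 2 and lower in 3, with ratios of 0.604 to 1.21. In stomach it was higher in 2 of 3 pairs and in large bowel in 1 of 3. When the merged records were counted for Aldh1a1, a choice made after the data were seen, the difference was 0.04 in small intestine and -0.02 outside it (limma adjusted p = 0.978).

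Cyp26b1 (mm9 chr6:84521938-84543740, minus strand), which clears retinoic acid, differed in opposite directions among the pairs of small intestine. It was higher in percc1-/- in bottom intestine at P1 (1.22 FPKM against 0.479) and P5 (2.42 against 1.19) and in top intestine at P1 (1.31 against 0.444). It was lower in top intestine at P5 (0.609 against 1.70) and P15 (0.664 against 1.495) and in bottom intestine at P10 (0.506 against 1.43) and P20 (0.892 against 1.89). The authors' bounds placed percc1-/- above in 2 pairs and below in 3, and overlapped in top intestine at P1 and bottom intestine at P10. The mean difference was -0.09, within the spread between pairs (SD 0.74). In stomach at P1 it stood at 13.6 in percc1-/- against 4.02 in wild type, the highest value of the 32 libraries, and over the 9 pairs outside small intestine the difference was 0.18 ± 0.19 (SE, limma adjusted p = 0.901).

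Rarb, the retinoic acid receptor beta (mm9 chr14:17263356-17651381, minus strand), was listed at 0 in 11 libraries and at 1.76 FPKM or more in the other 21, so that a 0 may be a failed estimate and the gene was not tested, a choice made after its values were seen. It was listed at 0 in 8 of 14 libraries of small intestine, the others having 1.76 to 3.19 FPKM. In stomach 1 of 10 libraries, wild type at P20, was at 0 and the others had 2.77 to 8.05, in large bowel 2 of 6 were at 0 and the others had 3.65 to 7.13, and whole gut had 6.95 in wild type and 7.68 in percc1-/-. Of the 7 pairs outside small intestine with a value in both libraries, percc1-/- was the lower in 5 by FPKM, with no test.

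**Figure D3:**
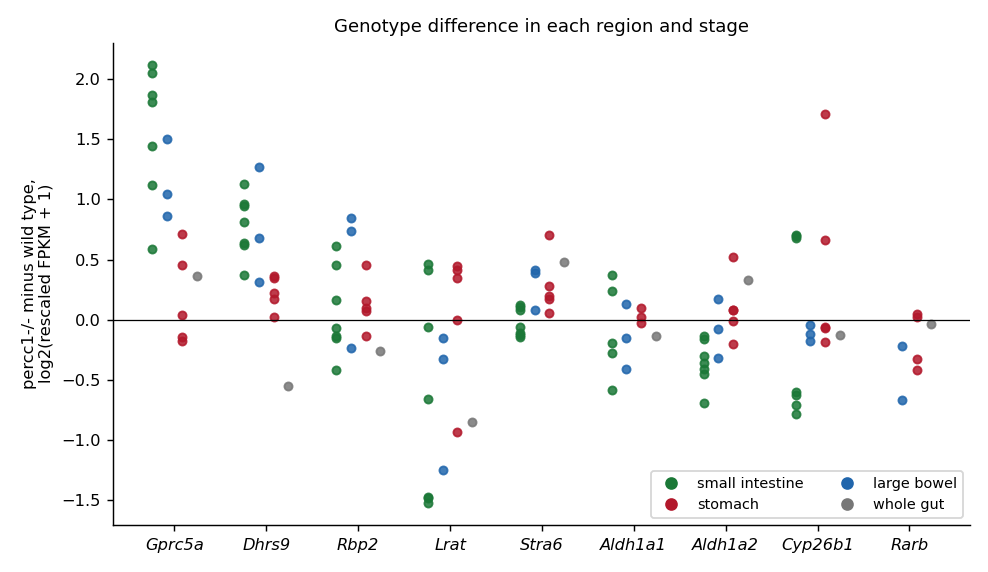
Difference of log2(rescaled FPKM + 1) between the percc1-/- and the wild-type library of each pair, for the 9 genes, with 1 point per pair coloured by organ; pairs with a missing value or a 0 are left out. Gprc5a lies above 0 in all 7 pairs of small intestine and 3 of large bowel, Aldh1a2 lies below 0 in all 7 of small intestine, and Cyp26b1 falls on both sides.

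Rbp2 and Lrat separated small intestine from stomach and large bowel. Stomach was compared with small intestine over 10 and 14 libraries, with stage and genotype in the model, and 4 of the 6 tested genes were called, in a comparison that called 48.3 percent of 13047 genes (limma, adjusted p below 0.05; 26.0 percent higher in stomach, 22.3 percent lower). The model had no term for the pair or the part of the organ, so that both libraries of a pair counted as separate. Rbp2 ran from 14.8 to 28.4 FPKM (median 21.5) in stomach against 30.4 to 70.7 (median 54.3) in small intestine, with no overlap, and was lower in stomach by a difference of -1.40 ± 0.10 (SE, adjusted p = 3.8e-10). Lrat ran from 0.0327 to 1.17 (median 0.138) against 2.77 to 16.6 (median 8.05), again with no overlap, a difference of -2.72 ± 0.23 (SE, adjusted p = 6.35e-09). The share of all genes without overlap is not given, here or in the comparisons below. The lack of overlap therefore cannot be read as particular to these genes.

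Dhrs9 was higher in stomach, at 6.02 to 14.51 FPKM (median 9.65) against 1.09 to 12.8 (median 6.12), by 0.86 ± 0.14 (SE, adjusted p = 4.32e-05), with overlapping groups. Aldh1a2 was higher by 0.27 ± 0.10 (SE, adjusted p = 0.0313). For Aldh1a2 the call was lost in 6 of the 12 fits that each left out 1 pair, in wild-type libraries alone (0.05, adjusted p = 0.816), and without the pairs with at least 5 markers of another organ (-0.16, adjusted p = 0.746). Gprc5a did not pass (0.47, adjusted p = 0.132), though it did without bottom intestine at P5 (0.59, adjusted p = 0.0426). In wild-type libraries alone it passed with 1.14 (adjusted p = 0.0074), at 1.14 to 10.03 FPKM in stomach against 0.415 to 2.08 in small intestine. Cyp26b1 did not pass (0.55, adjusted p = 0.174). With its merged records counted, Aldh1a1 was higher in stomach by 0.54 (adjusted p = 0.000151). The summed enterocyte markers were 85.2 to 187 in stomach and 334 to 569 in small intestine, also with no overlap, and their part in the values of Rbp2 and Lrat was not tested.

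Large bowel was compared with small intestine at P1 and P5, over 6 and 8 libraries, the latter shared with the stomach comparison. Of the 6 tested genes 3 were called, against 38.1 percent of 12979 genes (limma; 20 percent higher, 18.1 percent lower). Rbp2 had 12.6 to 27.0 FPKM (median 14.7) against 41.7 to 70.7 (median 56.2) and was lower by a difference of -1.64 ± 0.17 (SE, adjusted p = 2.86e-05). Lrat had 0.312 to 1.88 (median 1.10) against 2.84 to 16.6 (median 11.6), with -2.35 ± 0.27 (SE, adjusted p = 4.66e-05). Neither gene overlapped between the organs, and enterocyte markers summed to 79.7 to 270 in large bowel and 396 to 569 in the small intestine of these stages. Again the share of all genes without overlap is not given.

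Gprc5a was higher in large bowel, at 1.31 to 11.1 FPKM (median 3.26) against 0.415 to 6.43 (median 1.04), with 0.79 ± 0.28 (SE, adjusted p = 0.0381). The call ended without the large bowel at P1 (adjusted p = 0.143), rectum at P5 (0.179), bottom intestine at P1 (0.0823) or top intestine at P1 (0.0572) or P5 (0.151), and with no filter on low values (0.0522). Dhrs9 (-0.23, adjusted p = 0.433), Aldh1a2 (-0.31, 0.0966) and Cyp26b1 (-0.30, 0.278) did not pass, nor did Aldh1a1 with its merged records counted (0.32, 0.06). Stra6, under the filter, had 0.427 to 1.34 FPKM in large bowel against 0.0478 to 0.294 in small intestine at these stages, without overlap and without a test, the upper end being the value with bounds that reach 0.

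Between the top and the bottom of the small intestine at P1 and P5, 4 libraries each, 0 of the 6 tested genes were called and 0 had an unadjusted p below 0.05. In this comparison limma called 0.00782 percent of 12786 genes (1 gene), and 858 had an unadjusted p below 0.05. Lrat had the largest difference of the 6, 0.51 ± 0.35 higher in the top (SE, adjusted p = 0.863).

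**Figure D4:**
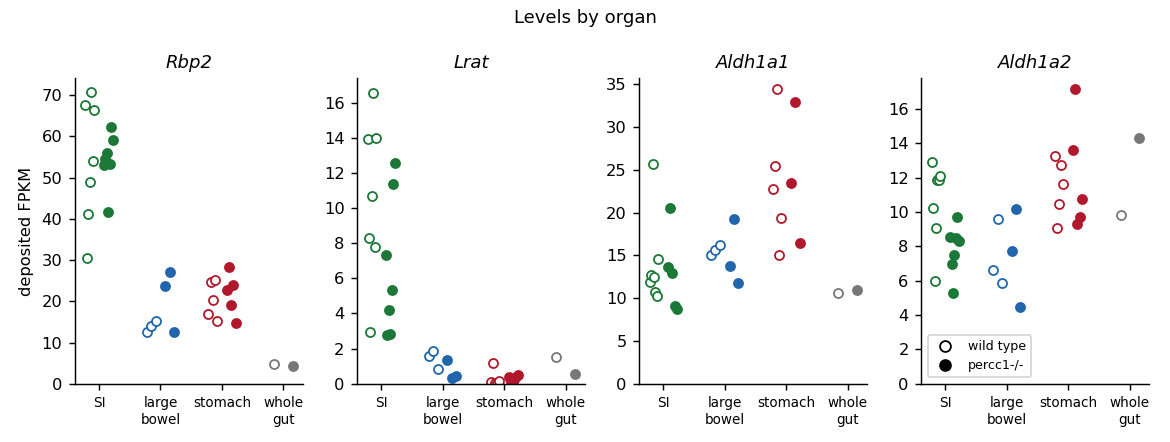
FPKM of Rbp2, Lrat, Aldh1a1 and Aldh1a2 in every library by organ, open for wild type and filled for percc1-/-, on linear axes from 0; SI is small intestine. Rbp2 and Lrat in small intestine lie above every library of the other organs, while Aldh1a1 and Aldh1a2 overlap between organs.

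The levels thus had a different order for each gene. By the median over libraries, Rbp2 ran from small intestine (54.3 FPKM) through stomach (21.5) and large bowel (14.7) to whole gut (4.499), and Lrat from small intestine (8.05) to large bowel (1.10), whole gut (1.04) and stomach (0.138). Stomach and large bowel overlapped for Rbp2, and large bowel overlapped both whole gut and stomach for Lrat. Dhrs9 was highest in stomach (9.65), then in small intestine (6.12) and large bowel (5.24), which overlapped, and lowest in whole gut (0.805), below every other library. Gprc5a had medians of 3.26 in large bowel, 3.09 in stomach, 1.69 in small intestine and 1.18 in whole gut, with overlap between all neighbours. Aldh1a1 had 23.1 in stomach, 15.4 in large bowel, 12.6 in small intestine and 10.8 in whole gut, Aldh1a2 12.04 in whole gut, 11.2 in stomach, 8.82 in small intestine and 7.15 in large bowel, and Cyp26b1 1.20 in small intestine, 1.16 in whole gut, 0.781 in stomach and 0.607 in large bowel, and in these genes neighbours in the order overlapped.

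With age, Dhrs9 fell in small intestine. Libraries at P10 to P20 were compared with those at P1 and P5 (6 and 8 libraries), with the part of the intestine and genotype in the model. Dhrs9 was the 1 gene of 6 called, in a comparison that called 5.93 percent of 12772 genes (limma; 3.47 percent higher at the older stages, 2.47 percent lower). It stood at 1.09 to 8.06 FPKM (median 3.12) at the older stages and 4.59 to 12.8 (median 7.71) at the younger, a difference of -1.22 ± 0.21 (SE, adjusted p = 0.00824). The groups overlapped through the percc1-/- library at P10, while in wild type the older libraries (1.16, 1.09 and 3.15) all lay below the younger (4.59 to 7.94). The call ended without bottom intestine at P1 (-1.09, adjusted p = 0.0623) or top intestine at P15 (-1.08, 0.107), in wild-type libraries alone (-1.41, 0.0842) and without the 3 pairs with at least 5 markers of another organ (-1.42, 0.104).

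The other 5 tested genes did not pass in small intestine with age. Lrat had 2.77 to 11.4 FPKM (median 5.99) at the older and 2.84 to 16.6 (median 11.6) at the younger stages (-0.53 ± 0.29, SE, adjusted p = 0.313). In wild type alone the older libraries had 2.96, 7.80 and 8.29 FPKM and the younger 10.7 to 16.6, without overlap. Gprc5a (0.21, adjusted p = 0.622), Rbp2 (-0.17, 0.52), Aldh1a2 (-0.19, 0.466) and Cyp26b1 (-0.01, 0.983) had differences within the spread between libraries.

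In stomach the older libraries were of the bottom of the organ (6 libraries) and the younger of the whole organ (4), so that stage and part of the organ cannot be told apart. Of the 5 tested genes 3 were called, against 17.1 percent of 13266 genes (limma; 8.07 percent higher in the older, 9.07 percent lower). Cyp26b1 stood at 0.295, 0.445, 0.473, 0.528, 0.726 and 0.835 FPKM in the older libraries and at 3.56, 4.02, 5.43 and 13.6 in the younger. The groups did not overlap, and the difference was -2.27 ± 0.30 (SE, adjusted p = 0.00139). The share of all genes without overlap between these groups is not given. Cyp26b1 stayed called without any single pair, at -2.65 to -1.88.

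Gprc5a went the other way, with 2.78, 3.39, 6.32, 8.06, 8.24 and 10.03 FPKM in the older libraries and 1.14, 1.24, 1.70 and 2.35 in the younger. The groups did not overlap, with a difference of 1.24 ± 0.31 (SE, adjusted p = 0.0232). The call held without the pair at P10 (1.60) and ended without P15 (1.17, adjusted p = 0.1), P20 (0.95, 0.0791), P1 (1.37, 0.114) or P5 (1.11, 0.115), and in wild-type libraries alone (1.57, 0.0849). Dhrs9 was lower in the older libraries, at 6.02 to 14.51 (median 8.64) against 9.65 to 12.7 (median 10.9), by a difference of -0.51 ± 0.15 (SE, adjusted p = 0.0453). The call held without P15 alone and ended without each of the other 4 pairs, without rescaling (-0.29, adjusted p = 0.267) and with no filter on low values (0.0623). Rbp2 (-0.06, adjusted p = 0.841) and Aldh1a2 (-0.14, 0.474) did not pass. With merged records counted, Aldh1a1 was higher in the older libraries by 0.40 (adjusted p = 0.0466), a call lost in wild-type libraries alone (0.51, adjusted p = 0.195).

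Other cell types differed between the same stomach groups. The 7 squamous markers summed to 68.9 to 131 FPKM in the older and 160 to 249 in the younger libraries, the 6 mesothelium markers to 10.3 to 14.7 and 23.6 to 36.1, and the 9 gastric gland markers to 456 to 740 and 126 to 320. None of these sums overlapped between the groups, and their part in the values of Cyp26b1, Gprc5a and Dhrs9 was not tested.

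**Figure D5:**
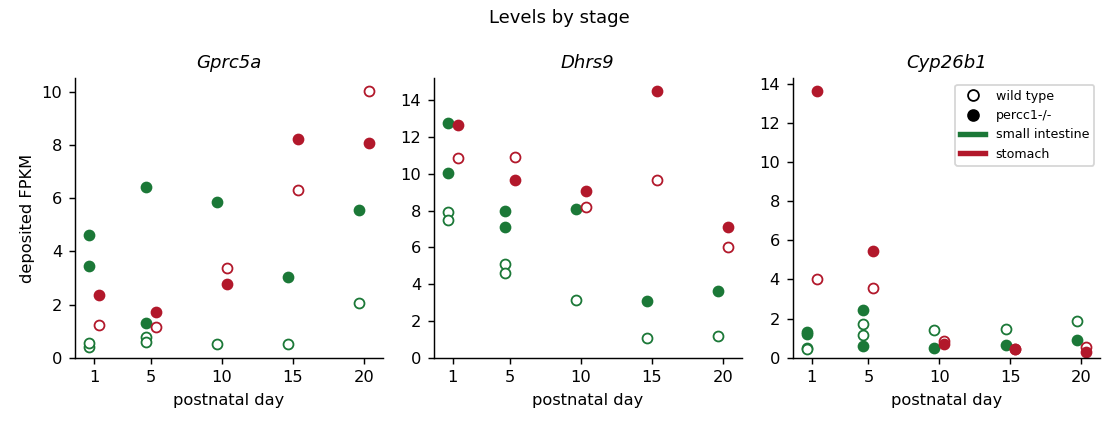
FPKM of Gprc5a, Dhrs9 and Cyp26b1 against postnatal day in small intestine and stomach, open for wild type and filled for percc1-/-; stomach is the whole organ at days 1 and 5 and its bottom later. Gprc5a in stomach lies at 1.14 to 2.35 on days 1 and 5 and at 2.78 or more later, Dhrs9 in small intestine is lower on days 15 and 20, and Cyp26b1 in stomach is at 3.56 or more on days 1 and 5 alone.

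Another 73 genes of the same pathway gave the surroundings of these changes. In the genotype comparisons 0 of 50 tested pathway genes were called in small intestine (limma; 4 at an unadjusted p below 0.05) and 0 of 55 outside it (5 unadjusted), with median differences of 0.00 and 0.01 beside -0.00 over all genes in both. Of all genes 0.117 and 0.0671 percent were called, so that a count of 0 is near the background. At an unadjusted p below 0.05 lay 8 and 9.09 percent of the pathway genes and 10.1 and 7.57 percent of all genes. By group, none of the 7 retinoid receptors and coregulators tested was called, nor of the 10 and 11 genes known to respond to retinoic acid in other settings, nor of the Gprc5 family members Gprc5b and Gprc5c. In small intestine with age 2 of 50 were higher and 1 lower, or 6 percent against 5.93 percent of all genes, which is the background share. Rdh7, a retinol dehydrogenase, rose from 1.64 ± 2.11 to 6.69 ± 2.41 FPKM (SD, n = 8 and 6; adjusted p = 0.00864), and the lipase gene Lipe rose by 0.63 (adjusted p = 0.0329), while the fatty acid transporter Cd36 fell by 0.67 (adjusted p = 0.0468). Between top and bottom intestine 0 of 52 were called (5 unadjusted).

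Between stomach and small intestine 21 of 54 pathway genes were higher in stomach and 11 lower, 59.3 percent called against 48.3 percent of all genes, with a median of 0.16 against 0.02. Among uptake genes 3 of 13 were higher and 5 lower. The retinol-binding protein receptor gene 1300002K09Rik stood at 0.589 ± 0.850 FPKM in stomach and 31.97 ± 11.8 in small intestine (SD, n = 10 and 14; -4.29), the transcription factor Isx, known to be induced by retinoic acid in enterocytes, at 0.747 ± 1.09 and 23.7 ± 6.06 (-3.92), and Dgat1 at 17.4 ± 3.02 and 49.8 ± 11.6 (-1.56). The binding proteins went the other way, 4 of 4 tested being higher in stomach, among them Crabp2 (1.94) and Fabp5 (1.90). Of 17 retinol dehydrogenases 6 were higher and 4 lower, led by Adh7 (3.19) and Rdh12 (2.66). Of the other enzymes of retinal and retinoic acid, Cyp2s1 (2.18) and Aldh1a7 (1.35) were higher and Aldh1a3 (-1.15) lower, and both tested relatives of Gprc5a, Gprc5c (1.18) and Gprc5b (0.48), were higher. Enterocyte markers (85.2 to 187 in stomach, 334 to 569 in small intestine) did not overlap between these organs either, and their part in the pathway values, here and in large bowel, was not tested.

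In large bowel 6 of 48 pathway genes were higher than in small intestine and 15 lower, or 43.8 percent against 38.1 percent of all genes, and 9 of the 12 tested uptake genes were among those lower, led by 1300002K09Rik (-1.70), Lipe (-1.37), Isx (-1.36) and Dgat1 (-1.32). The dehydrogenase Sdr16c5 had the largest difference (-2.46) and Aldh1a3 had -1.38, while Meis2 (1.001) and Rarg (0.57) were higher. With stage and part of the stomach, 9 of 52 were higher in the older libraries and 7 lower, 30.8 percent against 17.1 percent of all genes. Rdh12 (-2.52), Sdr16c5 (-1.92), Crabp2 (-1.59) and Cyp1b1 (-1.32) were lower, as Cyp26b1 was, and Ces1d (1.495), Rbp7 (1.17), Bco2 (1.09) and Akr1b8 (0.91) were higher, as Gprc5a was. The part in these values of the squamous, mesothelium and gastric gland markers, whose sums differed between the same groups without overlap, was not tested.

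The likeness of patterns over the 32 libraries was computed for 6 of the 9 genes, among 13084 genes, and not for Aldh1a1, Rarb and Stra6. Genes most like these 6 were Kcnk1, Enpp4 and Fut4 for Gprc5a (Pearson r of 0.768, 0.761 and 0.744), and Egln3 and Tgfa for Dhrs9 (0.802 and 0.785). For Rbp2 they were Cgref1, Xkr9 and Ifi35 (0.939, 0.938 and 0.937), and for Lrat Nr2e3, Smcp and Agmat (0.965, 0.964 and 0.956). For Cyp26b1 they were Xkrx, Pard3 and Pnpla1 (0.897, 0.893 and 0.885), and for Aldh1a2 Hebp1, Bbs9 and Zfp358 (0.709, 0.679 and 0.677). The values describe libraries that share organs and stages. The coefficients were higher for Rbp2, Lrat and Cyp26b1 than for Gprc5a, Dhrs9 and Aldh1a2.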

How the data were processed

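Total RNA was sequenced with a stranded kit after ribosomal RNA depletion, from tissue frozen after its contents were squeezed out, per the labels' protocols. The deposited values are FPKM that the authors computed for genes and unnamed records. Per the submitters' processing notes the tools were Cufflinks 2.2.1, TopHat2 2.0.13 and SAMtools 0.1.18, with the build mm9. The files give no read counts, so that depth per library is unknown, and the bounds that the authors give for each FPKM stand as its error. Named records held 16.8 to 60.2 percent of each library's FPKM. Records of a symbol were summed, and a record merged with another gene, or marked as failed, was treated as missing.

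Libraries were rescaled by the median ratio over genes above 1 FPKM in every library. Differences were tested with limma 3.58.1 in R 4.3.3 (trend, robust) on log2(rescaled FPKM + 1), over all genes whose mean reached 1 FPKM and that had no missing value, with Benjamini-Hochberg adjustment and a threshold of 0.05. Covariates were the pair for genotype and stage, genotype or part of the intestine for the other comparisons. Those other comparisons had no term for the pair, so that both libraries of a pair counted as separate. The procedure was tested on simulated data. Alternatives were a pseudocount of 0.1, no filter, no rescaling, no pair, wild-type libraries only, each pair left out, and pairs with markers of another organ left out. Positions come from GENCODE vM1 on mm9 and promoter sequences from RefSeq on GRCm38.p6. All 9 genes were named in every comparison, and of each pathway list up to 4 called genes with the largest differences. The genes, pathway lists and marker lists were chosen with earlier results of these data known. Rarb was left out of the tests after its zeros were seen. Of the genes most like a member, 1 is not reported here.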

Additional observations from a re-analysis of the deposited data

Results flagged for a closer look

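The group of 7 wild-type libraries of small intestine had 1 library far from the others for 2 genes, bottom intestine at P20. Gprc5a stood there at 2.076 FPKM, the next highest wild-type library being at 0.778, and Aldh1a1 at 25.7, the next being at 14.55. In percc1-/- small intestine Cyp26b1 stood at 2.421 in bottom intestine at P5, far above the next library at 1.31. That library also held squamous epithelium markers at a summed FPKM of 135, and their part in the value was not tested. In wild-type stomach Lrat stood at 1.172 in the bottom of the organ at P15, against 0.155 in the next library. These 4 came from 32 groups. The rule picks out about 1 in 20 groups of like libraries by chance. The groups here mix regions and stages, so that this rate does not apply to them.

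The unnamed records past the end of Dhrs9 lie outside the named genes compared in the report. Their mean was 4.52 FPKM in percc1-/- small intestine against 2.16 in wild type, where the 2 libraries with no such record were counted as 0, and 5.625 against 2.528 in large bowel.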

How the results depend on the processing

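Of 524 member values recomputed under alternatives, 465 counted as the same, 30 lost the threshold, 3 gained it, 25 changed sign and 1 moved by more than its spread. In the tested comparisons the same meant an unchanged direction and side of the threshold. For genotype in small intestine, which had no test, it meant a move smaller than the SD between pairs. A change of sign was not counted there. With a pseudocount of 0.1 Gprc5a in small intestine differed by 2.4 between genotypes and Cyp26b1 with stage by 0. Without pairs with markers of another organ, Dhrs9 and Cyp26b1 differed by -0.12 between genotypes outside small intestine. That planned rule removed 13 of 16 pairs and could be fitted for this comparison only. A version that asked for at least 5 markers was chosen after seeing the data and could not be fitted for the parts of the intestine or for stage in stomach. It gave Dhrs9 outside small intestine 0, Cyp26b1 with stage in small intestine 0.18, Aldh1a2 in stomach against small intestine -0.16 and Cyp26b1 in large bowel against small intestine 0.18, and it called 0 members with stage in small intestine. In the 3 large bowel pairs Aldh1a2 differed by -0.08. Wild-type libraries alone gave Cyp26b1 0.53 with stage in small intestine, 0 members called there and 1 in stomach. Without rescaling Rbp2 differed by 0.17 and Aldh1a2 by 0.08 with stage in stomach. The cause of these changes was not tested.

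Leaving out 1 pair at a time gave Gprc5a 1.48 to 1.73 and Dhrs9 0.72 to 0.85 in small intestine. It gave Cyp26b1 -0.02 to 0.22 outside it and -0.13 to 0.14 with stage in small intestine. Between top and bottom it gave Gprc5a -0.9 to 0.18, Rbp2 -0.02 to 0.52, Aldh1a2 -0.12 to 0.3 and Lrat -0.13 to 1.15. It gave Dhrs9 -0.4 to 0.33 in large bowel against small intestine and Rbp2 -0.46 to 0.33 with stage in stomach. Members called with stage were 0 to 1 in small intestine and 1 to 2 in stomach.

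Over all genes, 758 were called with stage in small intestine, 119 in wild type alone, 44 without the pairs with at least 5 markers and 82 to 847 without 1 pair. Stage in stomach called 2273, 414 in wild type alone and 436 to 2413 without 1 pair. Stomach against small intestine called 6302 and 1904 without those pairs, and large bowel 4944 and 2224, or 2693 to 4856 without 1 pair. Genotype outside small intestine called 9, 5 with no pair in the model, 0 without the marker pairs under either rule, 3 in stomach and 2 in large bowel alone, and 3 to 13 without 1 pair. Top against bottom called 1, 53 in wild type alone, 3 without rescaling, 0 with the pseudocount of 0.1 and 0 to 2 without 1 pair. No paired analysis was possible by replicate number because the labels give none. The pair of region and stage was the block for genotype. Outside small intestine 0 members were called with it, and leaving it out added no call. In small intestine no calls of members were taken, so that none could be compared. Depth is unknown, and the precision of low values (Stra6, and Lrat outside small intestine) is limited to the authors' bounds, some of which reach 0.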
